A study of Homo sapiens with 8 samples.

Results

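The NF-kB pathway genes described here are 41 of the 57169 genes in the deposited count table, chosen by symbol as NF-kB subunits, the inhibitors and feedback genes the pathway switches on, and the cytokines, chemokines and surface receptors that belong to it. No expression value entered the choice of a gene, but the choice was made with earlier results of these data known. RNA was measured in 2 human colorectal carcinoma lines, HCT116 and SW620. Each line was treated with AFZC, which the series title describes as a metal-organic framework nanodrug that carries 5-fluorouracil and is coated with an aptamer, or with free 5-fluorouracil (5-FU), the thymidylate synthase inhibitor used against this cancer. The 4 groups were AFZC-treated SW620, 5-FU-treated SW620, AFZC-treated HCT116 and 5-FU-treated HCT116, with 2 libraries each. All cells had been exposed for 24 h at the IC50 of the agent in that line, untreated cells were not analysed here, and the doses behind these IC50 values are not given in the labels, so every treatment effect is AFZC relative to free 5-FU.

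NF-kB is a family of dimeric transcription factors held in the cytoplasm by IkB proteins. Signals from cytokine receptors, pattern recognition receptors or DNA damage activate the IkB kinase complex, the IkB proteins are degraded, and the dimers enter the nucleus and bind short kB sites. Their targets include chemokines that attract neutrophils and lymphocytes, adhesion molecules, survival genes such as BIRC3, and the inhibitors NFKBIA and TNFAIP3 that shut the signal off again. In colorectal tumours the pathway is known for linking inflammation to the survival of the cancer cells.

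The promoters of the chemokines show the sequence feature that the pathway is known for. RefSeq promoter sequences (GRCh38.p14) were at hand for 31 of the 41 genes, and the 250 bases before each start were searched on both strands for a loose kB-like motif, GGNNNTTCC, and for a stricter one, GGANTTTCC, whose matches are all matches of the loose one. RELB, NFKBIE, CD40, CSF1, CSF3, LIF, CXCL16, CCL2, CCL5 and CX3CL1 had no entry. The 120 bases before the start are printed for the 5 chemokines of the CXCL1 group, which were added to those picked by rule after the matches had been seen, and for IL32. IL32 had another start as well, and the start with more matches is the one printed. The 250 bases before its other start, chr16:3065534-3065783, held no match of either motif. Longer stretches, 250 bases, are printed for BIRC3 and CXCL10, whose matches lie farther out. IL32, BIRC3, CXCL5 and CXCL10 were picked because, of the called genes with an entry, they had the largest fitted changes among the interleukins, the inhibitors and the 2 chemokine classes in SW620. All are written 5′ to 3′ on the strand of the gene, and capitals mark the matches of either motif on either strand. The stretches are chr4:73869273-73869392 (plus strand) for CXCL1, chr4:74099196-74099315 (minus) for CXCL2, chr4:74038690-74038809 (minus) for CXCL3, chr4:73998678-73998797 (minus) for CXCL5, chr4:73740449-73740568 (plus) for CXCL8, chr16:3065283-3065402 (plus) for IL32, chr11:102317234-102317483 (plus) for BIRC3 and chr4:76023498-76023747 (minus) for CXCL10.
CXCL1: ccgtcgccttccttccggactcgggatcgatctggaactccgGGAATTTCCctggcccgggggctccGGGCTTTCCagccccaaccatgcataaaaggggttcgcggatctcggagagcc
CXCL2: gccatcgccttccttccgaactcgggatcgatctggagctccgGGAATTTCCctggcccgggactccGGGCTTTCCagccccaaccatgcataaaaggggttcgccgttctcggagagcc
CXCL3: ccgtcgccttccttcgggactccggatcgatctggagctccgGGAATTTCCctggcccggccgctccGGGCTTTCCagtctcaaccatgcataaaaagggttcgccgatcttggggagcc
CXCL5: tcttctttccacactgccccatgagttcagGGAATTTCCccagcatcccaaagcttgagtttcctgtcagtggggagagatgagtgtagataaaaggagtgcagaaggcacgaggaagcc
CXCL8: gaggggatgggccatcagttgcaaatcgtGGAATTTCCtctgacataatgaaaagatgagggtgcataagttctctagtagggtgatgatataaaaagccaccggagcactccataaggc
IL32: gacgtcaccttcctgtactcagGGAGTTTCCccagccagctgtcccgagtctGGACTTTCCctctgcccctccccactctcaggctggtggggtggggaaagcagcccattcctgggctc
BIRC3: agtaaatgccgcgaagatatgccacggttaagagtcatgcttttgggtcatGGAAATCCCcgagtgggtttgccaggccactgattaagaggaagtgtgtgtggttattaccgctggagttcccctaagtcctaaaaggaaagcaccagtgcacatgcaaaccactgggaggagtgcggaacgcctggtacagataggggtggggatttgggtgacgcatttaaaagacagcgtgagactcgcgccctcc
CXCL10: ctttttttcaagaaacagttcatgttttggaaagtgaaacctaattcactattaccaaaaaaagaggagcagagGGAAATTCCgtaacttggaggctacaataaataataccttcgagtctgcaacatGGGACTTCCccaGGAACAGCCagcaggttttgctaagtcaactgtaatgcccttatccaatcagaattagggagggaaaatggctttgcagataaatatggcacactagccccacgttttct

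The letters GGAATTTCC occurred in all 5 chemokines of the CXCL1 group. They lay 78 to 70 bases before the start of CXCL1 and of CXCL3, 77 to 69 before that of CXCL2, 90 to 82 before that of CXCL5 and 91 to 83 before that of CXCL8. CXCL1, CXCL2 and CXCL3 shared a second match, GGGCTTTCC, 53 to 45 bases before the start. Their promoters were nearly copies of one another, with 93.4% identity between CXCL1 and CXCL2 and 90.8% between CXCL1 and CXCL3, so their matches are not separate observations. CXCL8 and CXCL1 were identical at 43.6% of the positions of their alignment, gaps counted as positions.

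The stricter motif was present in 19 of the 31 genes (61.3%), against 1.79% of the 27305 genes with a promoter. The loose motif was present in 24 of the 31 (77.4%), against 20.2% of all genes. Genes that rose in SW620 under AFZC held the stricter motif in 12 of 20 cases (60.0%), and the other genes in 7 of 11 (63.6%). TNF, TRAF1, IL23A, IL11, IL1A, RELA and PTGS2 held no match in this window. A match is a description of letters and not a measured binding site, and the genes were chosen as members of this pathway.

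**Figure D1:**
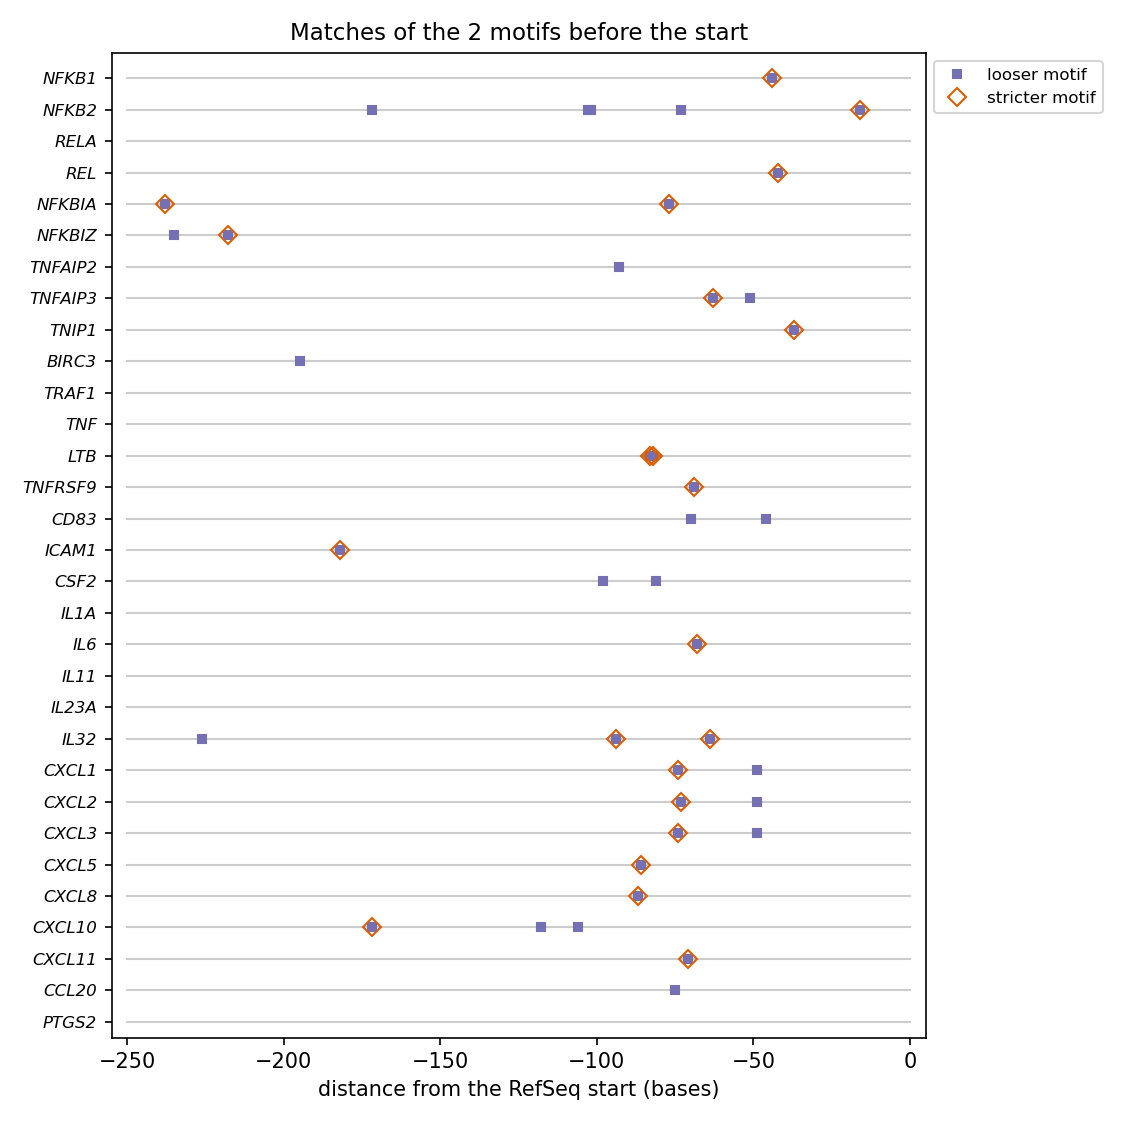
Position of each match of the loose motif (filled squares) and the stricter motif (open diamonds) in bases before the RefSeq start, for the 31 genes with a promoter sequence. The matches of CXCL1, CXCL2, CXCL3, CXCL5 and CXCL8 all lie within 91 bases of the start, and 7 genes have none.

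Total counts were 31991561 to 40590291 per library, and 24427 to 28340 genes had counts. Over the NF-kB pathway genes the libraries of a group did not always match. In AFZC-treated HCT116, replicate 1 stood above replicate 2: of 31 of these genes compared between the pair, 12 (38.7%) were over 2-fold higher in replicate 1 and 0 were over 2-fold higher in replicate 2, against 4.56% and 2.62% of all genes compared. The HCT116 calls are therefore given with and without these libraries. The markers of colorectal epithelium were present in every library, with summed levels of 5043 to 5516 CPM (counts per 1e6 counts, scaled with TMM factors) in SW620 under AFZC against 15216 to 16559 CPM under 5-FU, and 4889 to 7949 CPM in HCT116 under AFZC against 3504 to 4332 CPM under 5-FU. Markers of monocytes and macrophages summed to 16.7 to 42.4 CPM in SW620 under AFZC, nearly all of it LYZ, against 5.72 to 8.49 CPM under 5-FU. Of these 9 genes, 2 (PTPRC and TYROBP) had 0 counts in both SW620 AFZC libraries. Under 5-FU 4 had 0 counts in both SW620 libraries, namely ITGAM, TYROBP, AIF1 and CD163. In HCT116 the 9 genes summed to 8.18 to 9.62 CPM under AFZC against 0.778 to 1.54 CPM under 5-FU. There 0 of them lacked counts in both AFZC libraries, and 2 (CD68 and TYROBP) in both 5-FU libraries. T and B cell markers summed to 2.09 to 3.18 CPM in SW620 under AFZC against 0.413 to 0.846 CPM under 5-FU, with CD3E, CD2 and MS4A1 at 0 counts in all 4 of these libraries, and to 0.638 to 0.742 CPM in HCT116 under AFZC against 0.288 to 0.449 CPM under 5-FU. Fibroblast markers summed to 49.3 to 81.5 CPM in SW620 under AFZC against 52.8 to 57.3 CPM under 5-FU, and to 53.1 to 59.7 CPM in HCT116 under AFZC against 44.6 to 45.6 CPM under 5-FU. Endothelial markers summed to 13.6 to 18.3 CPM in SW620 under AFZC against 5.26 to 5.51 CPM under 5-FU, and to 5.27 to 5.35 CPM in HCT116 under AFZC against 4.50 to 5.56 CPM under 5-FU. The part of these marker levels in the results was not tested.

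Compared per kilobase of transcript, the genes had different leaders in the 2 lines. In AFZC-treated SW620 the highest levels were those of IL23A at 122 ± 48 CPM per kb and CCL20 at 115 ± 24 CPM per kb (SD, n = 2), followed by CXCL8 at 76.9 ± 34 and CXCL1 at 45.3 ± 16 CPM per kb. The spreads of IL23A, CCL20 and CXCL8 overlap, so their order among themselves is not resolved. In 5-FU-treated SW620 the order opened with IL23A (43.1 ± 0.57 CPM per kb), IL11 (40.8 ± 22), LIF (39.4 ± 3.6) and CXCL16 (34.9 ± 7.6), and IL11 overlapped each of the others in spread. In AFZC-treated HCT116 the subunit NFKB2 (42.5 ± 16 CPM per kb), CXCL16 (38.1 ± 12) and LIF (28.0 ± 5.6) stood highest, with overlapping spreads. In 5-FU-treated HCT116, NFKB2 (42.6 ± 2.8 CPM per kb) stood above CXCL16 (23.9 ± 1.0) and LIF (22.8 ± 0.11), which lay close together without overlap of their libraries.

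**Figure D2:**
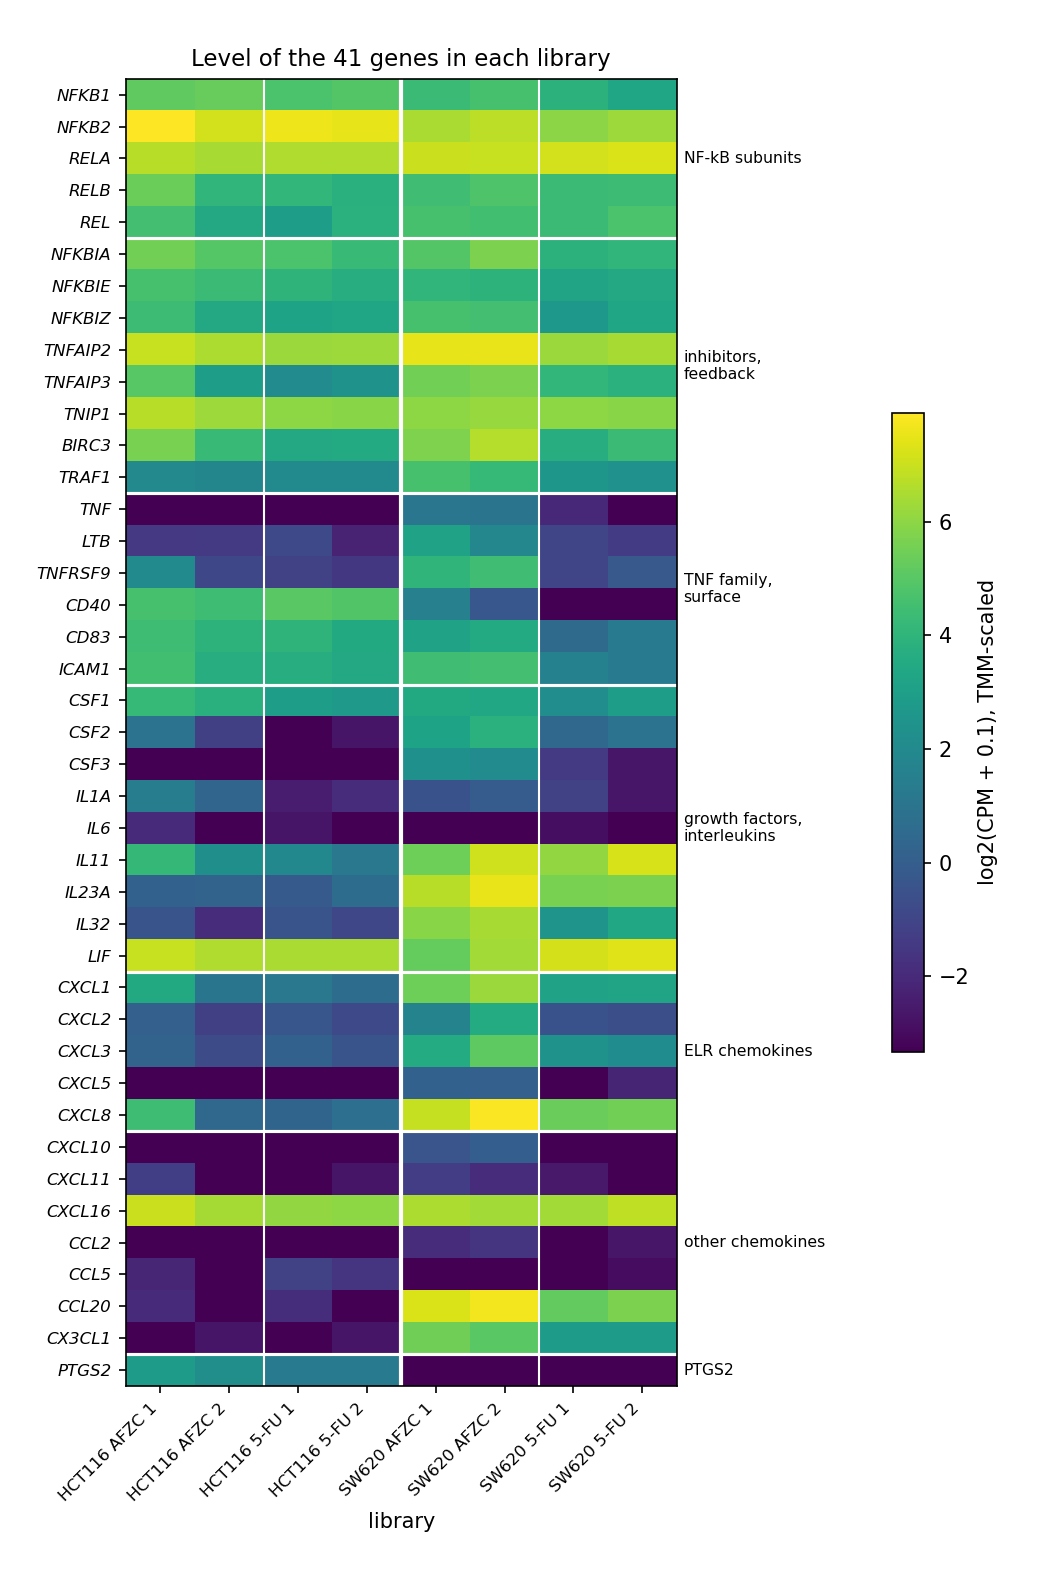
Level of each of the 41 genes (down the page, by class) in each of the 8 libraries (across), as the log2 of CPM plus 0.1, with brighter colours for higher levels. CCL20, CXCL8, CXCL1 and IL23A are each brighter in the SW620 AFZC columns than in the other columns. PTGS2 is at the floor in all 4 SW620 columns.

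The first comparison asked which of these genes differed between AFZC and free 5-FU in SW620. Of the 38 genes tested, 23 were higher and 1 was lower under AFZC at an adjusted p under 0.05 (edgeR's quasi-likelihood test, Benjamini-Hochberg over all genes), whereas 11.6% of all 21378 genes tested were higher and 6.95% lower (18.6% in either direction). Their median log2 fold change was 1.99, against 0.026 over all genes, and it was the same with CD40 and CXCL10, which had no counts under 5-FU, set at their bounds. DESeq2 called 21 higher and 1 lower, against 2664 higher and 1751 lower of all 21378 genes. TNF, LTB, CSF3, CXCL5 and CXCL10 passed the filter on low counts only because of the SW620 AFZC libraries and so had to differ. Without these 5, 18 of 33 were higher and 1 lower, with a median log2 fold change of 1.64. IL1A, kept among the 33 and not called, reached the filter only in the AFZC libraries of both lines. Among the 29 genes that reached the filter in the SW620 5-FU libraries themselves, 17 were higher and 1 was lower. In 31 of the 38 both AFZC libraries lay above both 5-FU libraries (81.6%), or 26 of the 33 (78.8%) without those 5 genes, against 31.5% of all genes, and in 2, RELA and LIF, both lay below, against 28.4%. In bulk RNA, fewer cells of a type and less RNA per cell cannot be told apart.

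When 1 library is left out, its group keeps a single one, which is assumed to vary like the libraries of the other groups. Leaving out 1 library at a time, any of the 8, changed the number of genes called in SW620, over all genes as well. NFKBIZ, TNFAIP2, TRAF1, CD40, CD83, ICAM1, IL23A, IL32 and CX3CL1 kept their calls in every such omission. So did TNF, LTB and CSF3, but these had passed the filter only through the SW620 AFZC libraries and so had to differ.

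**Figure D3:**
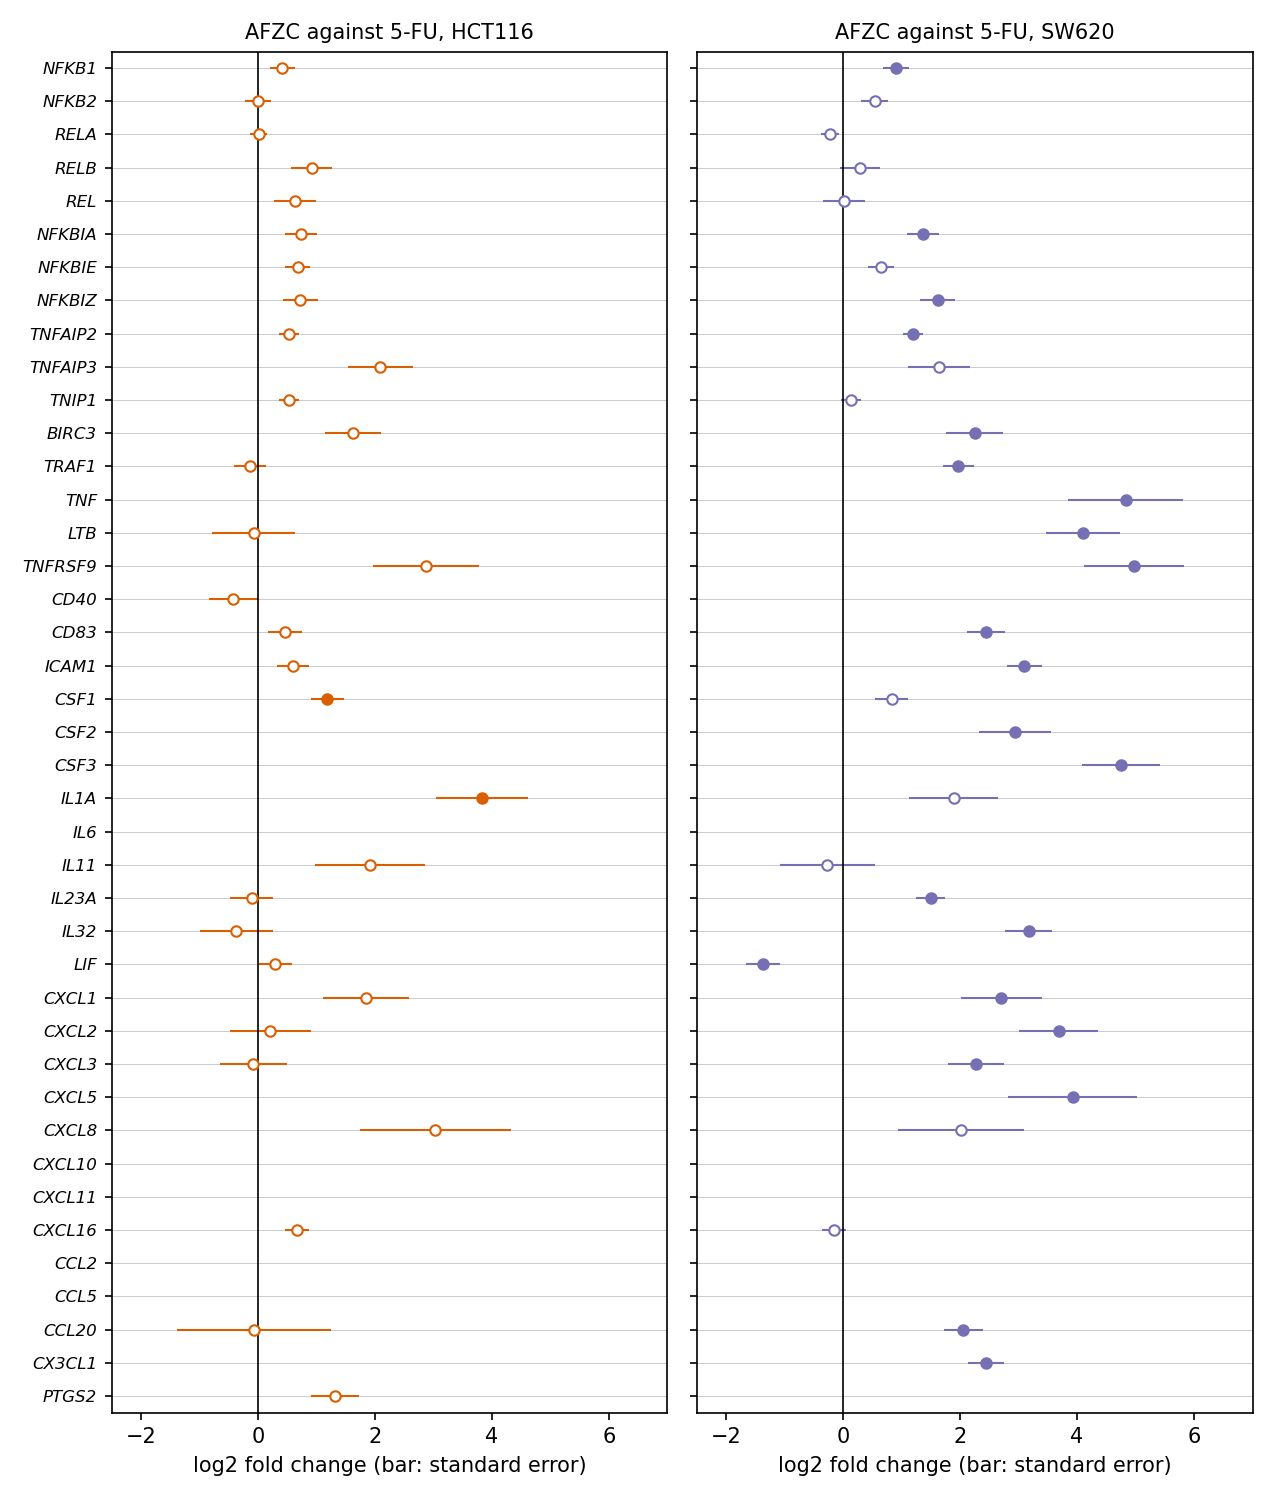
Log2 fold change of AFZC over 5-FU in each line (dots, with a bar of 1 standard error on either side), with filled dots for an adjusted p under 0.05. In SW620 most filled dots lie between 1 and 5, with LIF the 1 filled dot left of 0, and in HCT116 CSF1 and IL1A are filled, while genes without a dot, CSF2 in HCT116 among them, were not tested or had at most 3 counts in a group.

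Among the DNA-binding subunits, 1 of 5 rose in SW620 and the others did not pass the test. NFKB1, which encodes the p105 precursor of p50, had 20.3 and 25.1 CPM under AFZC, against 14.7 and 9.49 CPM under 5-FU. Both AFZC libraries lay above both 5-FU libraries, at 0.91 on the log2 scale of AFZC over 5-FU (SE 0.22, adjusted p = 0.0135, and each value after ± on the log2 scale below is also an SE), and the call was lost without replicate 2 of AFZC or replicate 2 of 5-FU (adjusted p up to 0.171). NFKB2, the p100 precursor of p52, had a log2 fold change of 0.54 ± 0.23 (adjusted p = 0.119). RELB, the partner of p52, was at 0.29 ± 0.35 and REL, or c-Rel, at 0.01 ± 0.35, and 43.3% of the exon bases of REL lie under another gene on the same strand. RELA, which encodes the p65 subunit, had 129 and 127 CPM under AFZC against 143 and 156 CPM under 5-FU, a log2 fold change of -0.22 ± 0.15 (adjusted p = 0.317) that became 0.15 when libraries were scaled by their totals only. The summed level of the 5 subunits was 285 and 314 CPM under AFZC against 260 and 289 CPM under 5-FU, and the groups overlapped.

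The inhibitors and feedback genes, which NF-kB itself induces, had 5 of 8 members higher and none lower in SW620, with a median log2 fold change of 1.49. NFKBIA, which encodes IkB-alpha, had 30.1 and 51.3 CPM under AFZC, against 15.0 and 16.6 CPM under 5-FU. The groups did not overlap, and the log2 fold change was 1.36 ± 0.28 (adjusted p = 0.00572). It missed the threshold without replicate 1 of 5-FU (adjusted p = 0.0516). NFKBIZ, which encodes the nuclear IkB-zeta, had 25.0 and 23.5 CPM under AFZC, against 6.16 and 9.67 CPM under 5-FU. It rose by a log2 fold change of 1.61 ± 0.31 (adjusted p = 0.00324). TNFAIP2, a TNF-induced gene, rose with 178 and 187 CPM under AFZC against 74.2 and 85.6 CPM under 5-FU (log2 fold change 1.19 ± 0.17, adjusted p = 0.000553).

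BIRC3, a ubiquitin ligase that protects cells from TNF-induced death, had 53.9 and 101 CPM in SW620 under AFZC, against 12.8 and 19.8 CPM under 5-FU. It rose by a log2 fold change of 2.25 ± 0.49 (adjusted p = 0.0171), and the call was lost without any 1 of the 4 SW620 libraries (adjusted p up to 0.150) and with no filter on low counts (adjusted p = 0.0781). TRAF1, an adaptor of TNF receptor family members, had 25.1 and 18.0 CPM under AFZC, against 6.06 and 4.95 CPM under 5-FU. Its rise of 1.97 ± 0.27 on the log2 scale (adjusted p = 0.00036) kept its call in every omission of a library. TNFAIP3, which encodes the deubiquitinase A20, had 46.2 and 51.9 CPM under AFZC, against 17.1 and 14.4 CPM under 5-FU. The groups did not overlap, but the log2 fold change of 1.64 ± 0.53 did not pass the test (adjusted p = 0.0705). NFKBIE, or IkB-epsilon, was at 0.65 ± 0.22 (adjusted p = 0.057), and TNIP1, the A20-binding partner, at 0.13 ± 0.17.

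In the TNF family and surface class, TNFRSF9, CD40, CD83 and ICAM1 rose in SW620, 4 of the 4 left when TNF and LTB, which had passed the filter only through the AFZC libraries, are set aside. ICAM1, the adhesion molecule that leukocytes bind, had 22.2 and 23.0 CPM under AFZC, against 2.93 and 2.36 CPM under 5-FU. The groups were far apart, with a log2 fold change of 3.10 ± 0.30 (adjusted p = 2.9e-05), and 23.6% of its exon bases overlap genes on the opposite strand, whose reads cannot be separated in an unstranded library. TNFRSF9, or 4-1BB, a costimulatory receptor, had 16.3 and 22.0 CPM under AFZC, against 0.413 and 0.785 CPM under 5-FU. The rise on the log2 scale was 4.98 ± 0.86 (adjusted p = 0.00526), and the call was lost without either 5-FU library of SW620 (adjusted p up to 0.0852). CD83, a surface glycoprotein of activated immune cells, had 8.81 and 11.4 CPM under AFZC, against 1.38 and 2.33 CPM under 5-FU, a rise of 2.44 ± 0.33 (adjusted p = 0.000335).

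TNF, LTB and CD40 had few counts or none in SW620 under 5-FU. LTB, which encodes lymphotoxin beta, had 314 and 127 counts under AFZC, against 12 and 10 counts under 5-FU. All AFZC counts were above the 5-FU counts, and the pooled ratio was 17.5 (95% exact interval 11.4 to 28.1, adjusted p = 0.000892). TNF had 71 and 69 counts under AFZC, against 4 and 0 counts under 5-FU, a pooled ratio of 30.5 (11.6 to 113, adjusted p = 0.0069), and DESeq2 did not call it (adjusted p = 0.511). CD40, the receptor for CD40 ligand, had 103 and 26 counts under AFZC, against 0 and 0 counts under 5-FU. By pooled counts it was at least 37.4-fold higher under AFZC, measured against a floor of 3 counts over the group (adjusted p = 0.003). The intervals and the floor cover counting error only, and they are too narrow here because both mates of a fragment appear to have been counted.

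Among the growth factors and interleukins, with CSF3 set aside for the same reason, 3 of 7 rose in SW620 and 1, LIF, fell. IL23A, which encodes the p19 subunit of interleukin 23, had 104 and 184 CPM under AFZC, against 50.7 and 51.6 CPM under 5-FU. The rise was 1.50 ± 0.25 on the log2 scale (adjusted p = 0.002). IL32, an intracellular and secreted cytokine, had 60.4 and 86.0 CPM under AFZC, against 5.54 and 10.6 CPM under 5-FU. It rose by 3.17 ± 0.40 (adjusted p = 0.000553). CSF2, or GM-CSF, the granulocyte and macrophage growth factor, had 9.12 and 14.5 CPM under AFZC, against 1.24 and 1.81 CPM under 5-FU, a rise of 2.94 ± 0.62 (adjusted p = 0.00753) that lost its call without either 5-FU library of SW620 (adjusted p up to 0.0852).

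CSF3, or G-CSF, the granulocyte growth factor, had 172 and 150 counts in SW620 under AFZC, against 8 and 2 counts under 5-FU. The pooled ratio was 28.0 (15.1 to 59.0, adjusted p = 0.000909). LIF, a cytokine of the interleukin 6 family, went the other way, with 38.5 and 82.2 CPM under AFZC against 146 and 167 CPM under 5-FU. The groups did not overlap. LIF fell by 1.37 on the log2 scale (SE 0.29, adjusted p = 0.0097), and the call was lost without replicate 2 of 5-FU (adjusted p = 0.083). CSF1, the macrophage growth factor, was at 0.83 ± 0.28 (adjusted p = 0.0598), IL1A, which encodes interleukin 1 alpha, at 1.89 ± 0.76 (adjusted p = 0.104), and IL11, another cytokine of the interleukin 6 family, at -0.27 ± 0.82, which became 0.11 with libraries scaled by their totals only. IL6 did not reach the test, with 0 and 0 counts under AFZC and 1 and 0 counts under 5-FU.

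The chemokines of the CXCL1 group, which carry the ELR motif and attract neutrophils through CXCR2, had 3 of 4 members higher in SW620 with CXCL5, which passed the filter only through the AFZC libraries, set aside. CXCL1 had 43.7 and 73.7 CPM under AFZC, against 8.64 and 9.33 CPM under 5-FU. It rose by 2.71 ± 0.69 (adjusted p = 0.0341), but the call was lost in 6 of the 8 omissions of a library (adjusted p up to 0.297) and with no filter on low counts (adjusted p = 0.197). CXCL2 had 3.12 and 11.9 CPM under AFZC, against 0.620 and 0.544 CPM under 5-FU. It rose by 3.68 ± 0.67 (adjusted p = 0.00314), missing the threshold without replicate 2 of 5-FU (adjusted p = 0.0524). CXCL3 had 11.9 and 34.6 CPM under AFZC, against 5.37 and 4.29 CPM under 5-FU, a rise of 2.27 ± 0.48 (adjusted p = 0.00769) that was lost without either 5-FU library of SW620 (adjusted p up to 0.106).

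CXCL8, or interleukin 8, had 120 and 230 CPM in SW620 under AFZC, against 40.9 and 45.5 CPM under 5-FU. The groups did not overlap, but the log2 fold change of 2.02 ± 1.07 did not pass the test (adjusted p = 0.268). CXCL5 had 36 and 36 counts under AFZC, against 0 and 4 counts under 5-FU, a pooled ratio of 15.7 (5.86 to 59.1, adjusted p = 0.0311). DESeq2 did not call CXCL5 (adjusted p = 0.588), nor did edgeR without replicate 1 of 5-FU or either AFZC library (adjusted p up to 0.133). Summed over the 5 genes, the level was 180 and 351 CPM under AFZC against 55.6 and 59.8 CPM under 5-FU. CXCL2, CXCL3 and CXCL1 share 12.5%, 6.01% and 4.81% of their windows of 50 bases with other genes, chiefly with one another, so their reads can be misassigned among the 3.

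Of the other chemokines tested, with CXCL10 set aside because it passed the filter only through the AFZC libraries, 2 of 4 rose in SW620. CCL20, which attracts CCR6-bearing lymphocytes and dendritic cells, had 156 and 211 CPM under AFZC, against 37.1 and 51.1 CPM under 5-FU. The rise was 2.06 ± 0.34 (adjusted p = 0.00288), which DESeq2 did not call (adjusted p = 0.386) and which missed the threshold without replicate 1 of 5-FU (adjusted p = 0.051). CX3CL1, or fractalkine, a membrane-anchored chemokine, had 44.1 and 32.6 CPM under AFZC, against 6.99 and 7.13 CPM under 5-FU. It rose by 2.44 ± 0.31 (adjusted p = 0.000246) and kept its call in every omission of a library. CXCL10, an interferon-induced ligand of CXCR3, had 24 and 33 counts under AFZC, against 0 and 0 counts under 5-FU, at least 16.5-fold higher by pooled counts against the floor of 3 counts over the group (adjusted p = 0.01). The call of CXCL10 was lost without either 5-FU library of SW620 (adjusted p up to 0.0728), and DESeq2 gave it no adjusted p.

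The remaining chemokines did not pass the test or did not reach it in SW620. CXCL11, also a ligand of CXCR3, had 11 and 6 counts under AFZC, against 2 and 0 counts under 5-FU, a pooled ratio of 7.40 (1.76 to 66.1) that did not pass (adjusted p = 0.274). CXCL16, the ligand of CXCR6, was at -0.15 ± 0.21 (adjusted p = 0.664), or 0.23 with libraries scaled by their totals only. CCL2, which attracts monocytes, had 6 and 8 counts under AFZC against 0 and 2 counts under 5-FU, a pooled ratio of 6.10 (1.40 to 55.3), and CCL5 had 0 and 0 against 0 and 1, both too few to be tested. PTGS2, or COX-2, the inducible prostaglandin synthase, had 0 counts in all 4 SW620 libraries.

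**Figure D4:**
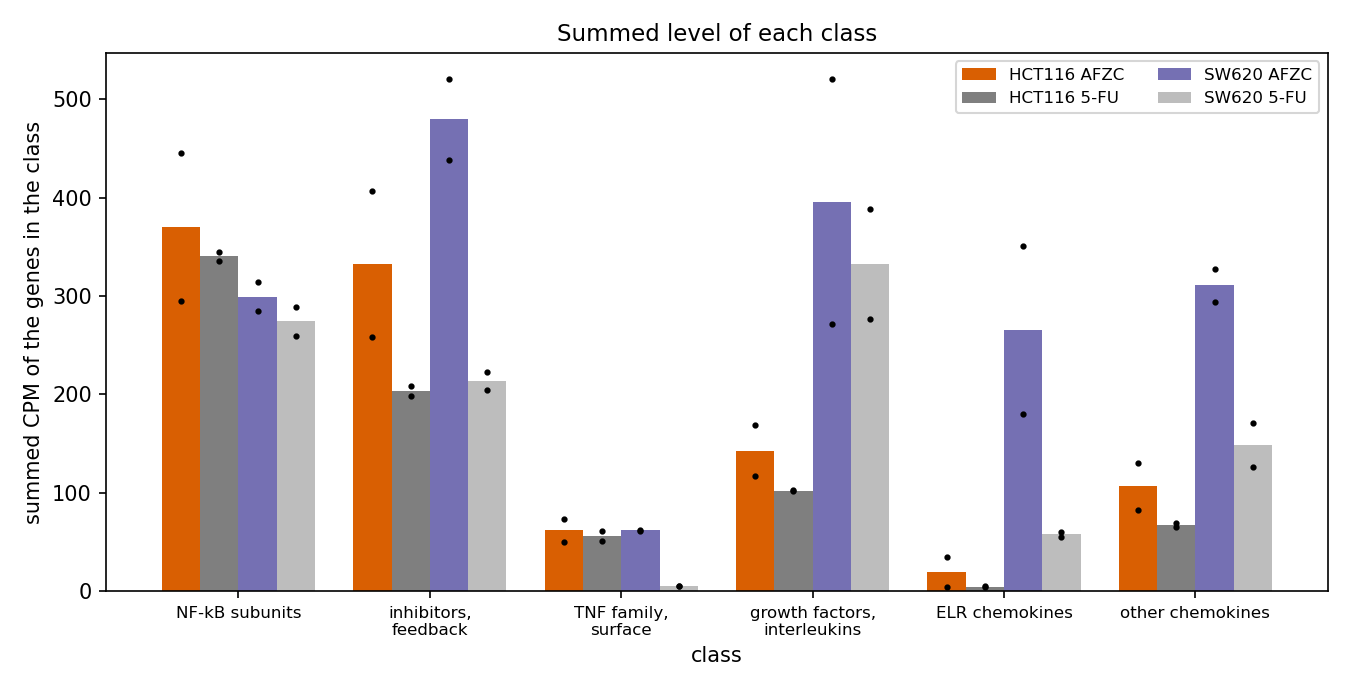
Summed CPM of the genes of each class in the 4 groups, with bars at the mean of the 2 libraries and dots for the libraries. In SW620 the inhibitors, the TNF family and both chemokine classes have both AFZC dots above both 5-FU dots, and in HCT116 the CXCL1 group has 1 AFZC dot at 34.6 CPM and 1 at 4.02 CPM.

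The second comparison asked the same of HCT116. Of the 38 genes tested, 3 were higher under AFZC (7.89%) and 0 lower at an adjusted p under 0.05, where 5.87% of all genes were higher and 3.74% lower (9.61% in either direction), so the count is near the background. Among the 27 genes that reached the filter in the HCT116 5-FU libraries themselves, 1, CSF1, was higher. At an unadjusted p under 0.05 the number in either direction was 16, a threshold for which no share over all genes is given. DESeq2 called 12 higher and 0 lower, against 1543 higher and 1172 lower of all 21378 genes. The median log2 fold change was 0.53 against 0 over all genes, and 0.62 without the 4 genes that had no counts in HCT116. TNF, LTB, CSF3, CXCL5, CXCL10, CXCL11, CCL20 and CX3CL1 were below the filter in both HCT116 groups. In 17 of the 38 (44.7%) both AFZC libraries lay above both 5-FU libraries, against 28.1% of all genes, and in 2, TRAF1 and CD40, both lay below, against 27.4% of all genes.

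The 3 genes that rose in HCT116 were CSF1, IL1A and CSF2. CSF1 had 18.1 and 14.0 CPM under AFZC, against 7.49 and 6.63 CPM under 5-FU. The groups did not overlap, and the log2 fold change was 1.19 ± 0.28 (adjusted p = 0.0197). IL1A had 2.57 and 1.17 CPM under AFZC, against 0.0865 and 0.168 CPM under 5-FU, with a log2 fold change of 3.83 ± 0.78 (adjusted p = 0.00941). It rests on 139 counts under AFZC and 9 under 5-FU, a pooled ratio of 14.7 (7.53 to 32.9). IL1A reached the filter on low counts only in the AFZC libraries of both lines. The filter thus selected it for being high under AFZC, and its call is no independent finding. CSF2 had 69 and 12 counts under AFZC, against 0 and 2 counts under 5-FU, a pooled ratio of 38.6 (10.3 to 324, adjusted p = 0.0137).

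All 3 calls depended on single libraries. Without replicate 1 of AFZC the log2 fold changes in HCT116 were 0.98 for CSF1, 3.38 for CSF2 and 3.14 for IL1A, with adjusted p of 0.139, 0.0757 and 0.0845. Without replicate 2 of AFZC they were 1.34, 5.82 and 4.27, with adjusted p of 0.017, 0.000189 and 0.0041. Without either 5-FU library none of the 3 was called (adjusted p up to 0.163 for CSF1, 0.152 for CSF2 and 0.140 for IL1A).

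Several other genes were high in replicate 1 of AFZC-treated HCT116 only. CXCL8 had 21.4 and 1.25 CPM under AFZC, against 1.12 and 1.63 CPM under 5-FU, so that replicate 2 of AFZC lay between the 5-FU libraries. CXCL1 had 11.1 and 1.94 CPM under AFZC, against 2.19 and 1.46 CPM under 5-FU, with the same order. RELB had 42.1 and 16.5 CPM under AFZC against 17.2 and 13.7 CPM under 5-FU, and here too the groups overlapped. The fitted log2 fold changes of CXCL8, CXCL1 and RELB were 3.04 ± 1.29, 1.84 ± 0.73 and 0.92 ± 0.35, with adjusted p of 0.229, 0.174 and 0.130.

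In other genes replicate 2 of AFZC also lay above both 5-FU libraries of HCT116. TNFAIP3 had 31.8 and 7.80 CPM under AFZC, against 4.12 and 5.17 CPM under 5-FU (log2 fold change 2.09 ± 0.56, adjusted p = 0.0553). BIRC3 had 50.2 and 18.7 CPM under AFZC, against 10.8 and 11.5 CPM under 5-FU (1.62 ± 0.48, adjusted p = 0.078). TNFRSF9 had 3.98 and 0.444 CPM under AFZC, against 0.346 and 0.253 CPM under 5-FU (2.88 ± 0.91, adjusted p = 0.0859). None of these 3 passed the test, though DESeq2 called all of them. IL11 had 17.5 and 4.72 CPM under AFZC, against 3.72 and 2.19 CPM under 5-FU (1.92 ± 0.93, adjusted p = 0.285). PTGS2 had 7.39 and 4.55 CPM under AFZC, against 2.42 and 2.36 CPM under 5-FU (1.32 ± 0.41, adjusted p = 0.0694).

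By class, 0 of 5 subunits, 0 of 8 inhibitors and feedback genes, 0 of 6 genes of the TNF family and surface class, 3 of 8 growth factors and interleukins, 0 of 5 chemokines of the CXCL1 group and 0 of 5 other chemokines were called in HCT116 by edgeR. At an unadjusted p under 0.05 the numbers were 1, 7, 2, 3, 1 and 1, with no share over all genes at that threshold. DESeq2 called 1, 5, 1, 3, 0 and 1, all higher, where it called 1543 of all 21378 genes higher. The inhibitors and feedback genes summed to 407 and 258 CPM under AFZC against 208 and 198 CPM under 5-FU, without overlap. The chemokines of the CXCL1 group summed to 34.6 and 4.02 CPM under AFZC against 5.04 and 4.18 CPM under 5-FU, and these overlapped.

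The number of genes called in HCT116 differed with the AFZC library that was kept, over all genes as well. The single AFZC library left was assumed to vary like those of the other groups. Without replicate 2, 16 of 39 genes were higher, against 6.54% of all genes in that fit, namely RELB, REL, NFKBIA, NFKBIZ, TNFAIP2, TNFAIP3, TNIP1, BIRC3, TNFRSF9, ICAM1, CSF1, CSF2, IL1A, CXCL1, CXCL8 and CXCL16, with log2 fold changes of 0.72 for TNFAIP2 and TNIP1 up to 5.82 for CSF2. Without replicate 1 edgeR called 0 of the 39 then tested, against 2.23% of all genes higher, with 7 at an unadjusted p under 0.05, and DESeq2 was not run on that set. What separates the 2 libraries was not tested. IL6, with 6 and 0 counts under AFZC against 2 and 0 under 5-FU, and CCL5, with 5 and 0 against 12 and 8, were too low to be tested in HCT116, and CCL2 had no counts there.

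**Figure D5:**
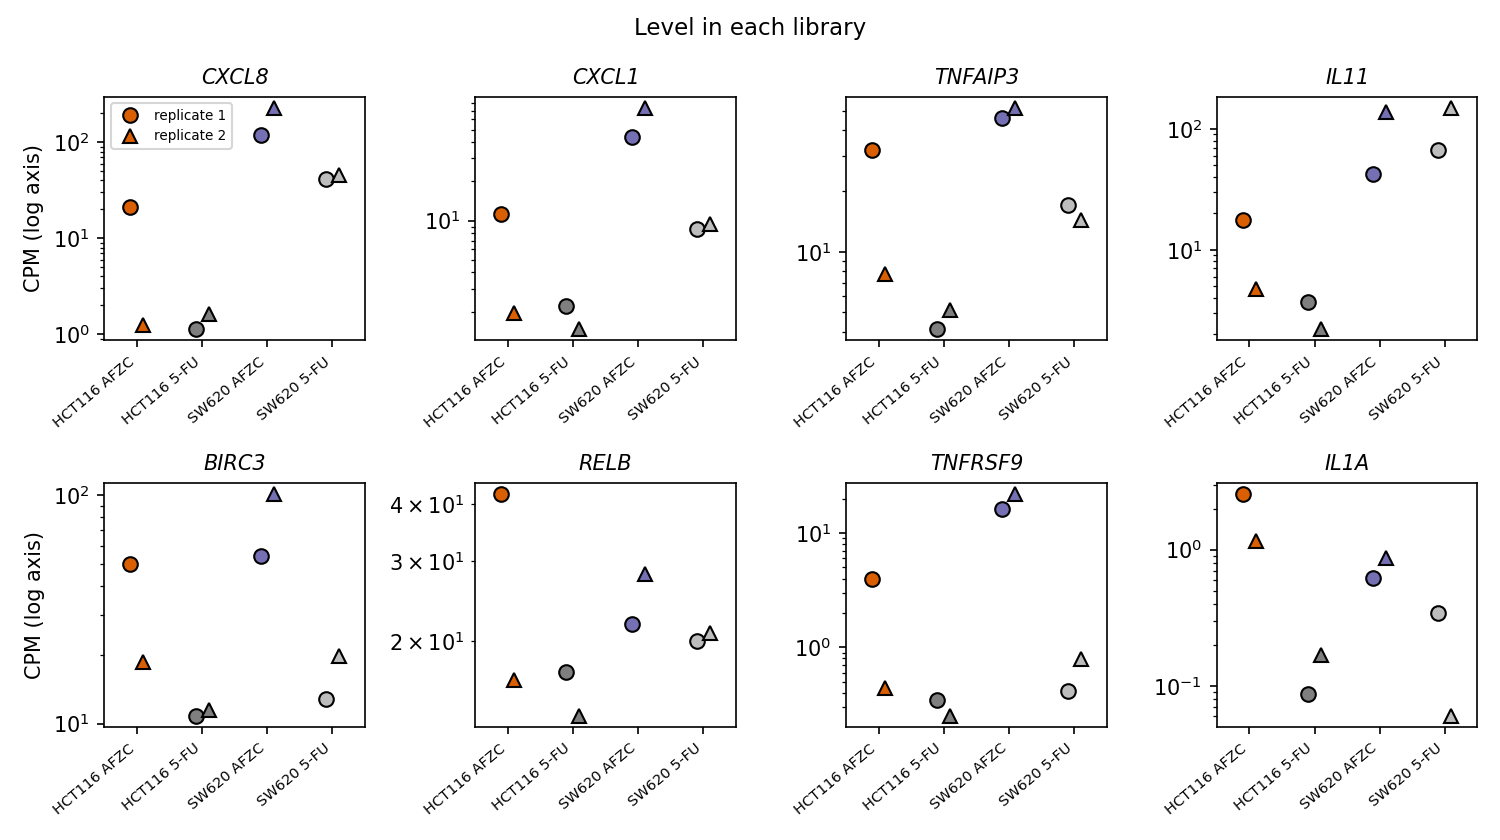
CPM on a log axis of 8 genes in each library, with circles for replicate 1 and triangles for replicate 2 of each group. The 8 genes were picked because their 2 HCT116 AFZC libraries differ, so the circle stands above the triangle there in all 8 panels. Some genes not shown, NFKB1, IL23A and LTB among them, were slightly higher in replicate 2. Most of those not shown that had counts, CSF2, CXCL2 and REL among them, were higher in replicate 1. For CXCL8 the triangle, at 1.25 CPM, lies between the 5-FU libraries.

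The third comparison tested whether the effect of AFZC differed between the lines, as the log2 fold change in SW620 minus that in HCT116. Of the 38 genes, 8 had a higher effect in SW620 and 1 a lower one, whereas 5.65% of all genes were higher and 4.14% lower by this test (9.78% in either direction). LTB, among the 8, had passed the filter only through the SW620 AFZC libraries. DESeq2 called 9 higher and 1 lower, against 1616 higher and 1206 lower of all 21378 genes. Over the 33 genes with counts in both lines the median difference was 0.62, against 0.036 over all genes. TRAF1, ICAM1 and CD40 kept this call without any 1 of the 8 libraries.

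TRAF1 had a difference of 2.10 ± 0.37 (adjusted p = 0.00456), with 3.79 and 3.50 CPM in HCT116 under AFZC against 3.92 and 4.07 CPM under 5-FU. ICAM1 had a difference of 2.50 ± 0.39 (adjusted p = 0.00226), with 22.7 and 12.8 CPM in HCT116 under AFZC against 12.6 and 10.8 CPM under 5-FU. For CD83 the difference was 1.98 ± 0.43 (adjusted p = 0.0132), with 21.4 and 15.3 CPM in HCT116 under AFZC against 15.6 and 11.1 CPM under 5-FU. TRAF1, ICAM1 and CD83 were thus each below 2-fold different between the agents in HCT116. CD40 had 25.1 and 21.2 CPM in HCT116 under AFZC against 32.7 and 29.2 CPM under 5-FU, a log2 fold change of -0.42 ± 0.43. Its fitted difference between the lines, 9.39 (adjusted p = 0.00711), depends on the 0 counts in SW620 under 5-FU and is not a bound.

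The other genes that differed were IL32, IL23A, LTB, CXCL2 and LIF. IL32 differed by 3.54 ± 0.74 (adjusted p = 0.0149), with 0.663 and 0.166 CPM in HCT116 under AFZC against 0.663 and 0.421 CPM under 5-FU, and IL23A by 1.60 ± 0.45 (adjusted p = 0.0429), with 1.03 and 1.08 CPM against 0.807 and 1.46 CPM. In both genes the HCT116 groups overlapped at low levels. LTB differed by 4.18 ± 0.95 (adjusted p = 0.0166), on 10 and 10 counts in HCT116 under AFZC against 16 and 4 under 5-FU, and it had passed the filter only through the SW620 AFZC libraries. CXCL2 differed by 3.47 ± 0.96 (adjusted p = 0.0405), with 0.981 and 0.333 CPM in HCT116 under AFZC against 0.692 and 0.449 CPM under 5-FU. LIF had the lower effect in SW620, by -1.67 ± 0.41 (adjusted p = 0.03), with 127 and 95.5 CPM in HCT116 under AFZC against 90.0 and 90.6 CPM under 5-FU.

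The number of genes with a different effect in the lines also changed with the library left out, over all genes as well. TNF, CSF3, CXCL5 and CXCL10 had no counts in HCT116 and PTGS2 none in SW620, so that their difference could not be estimated. CXCL3 did not pass (2.35 ± 0.74, adjusted p = 0.0715), and the differences of CXCL8 (-1.02 ± 1.65) and TNFAIP3 (-0.46 ± 0.75) were smaller than their errors.

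The last comparison set the lines side by side under free 5-FU, SW620 against HCT116, and shares its libraries with the comparisons above. Of the 38 genes, 15 were higher and 6 lower in SW620, where 26.5% of all genes were higher and 28.2% lower. With 54.8% of all genes called, the 21 called here are near the background. Both SW620 libraries lay above both HCT116 libraries for 19 genes and below them for 8, against 39% and 41% of all genes. DESeq2 gave the same counts of calls, against 5583 higher and 5856 lower of all 21378 genes. Of the 21, 13 were called throughout all omissions of a library and other settings.

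CCL20, CX3CL1, CSF2 and CSF3 were higher in SW620 and had at most 6 counts in either HCT116 library under 5-FU. CCL20 had 1078 and 1692 counts in SW620, against 6 and 0 counts in HCT116. The pooled ratio was 522 (240 to 1424, adjusted p = 9.46e-07). CX3CL1 had 203 and 236 counts in SW620, against 0 and 2 counts in HCT116, a pooled ratio of 248 (68.3 to 2057, adjusted p = 1.82e-07). CSF2 had 36 and 60 counts in SW620, against 0 and 2 in HCT116, a pooled ratio of 54.3 (14.6 to 455, adjusted p = 0.000845), and CSF3 had 8 and 2 against 0 and 0, at least 3.77-fold higher by pooled counts (adjusted p = 0.0129).

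The interleukins IL23A and IL32 were higher in SW620 as well, with 50.7 and 51.6 CPM of IL23A against 0.807 and 1.46 CPM in HCT116 (log2 fold change 5.49 ± 0.33, adjusted p = 6.55e-08) and 5.54 and 10.6 CPM of IL32 against 0.663 and 0.421 CPM (3.90 ± 0.49, adjusted p = 6.36e-05). IL11 (5.21 ± 1.01, adjusted p = 0.00676), CXCL3 (2.52 ± 0.53, adjusted p = 0.00191), RELA (0.66 ± 0.15, adjusted p = 0.00209) and REL (1.08 ± 0.36, adjusted p = 0.0252) were higher too, and CSF3, REL and IL11 lost that call without single libraries. CXCL8, with 40.9 and 45.5 CPM in SW620 against 1.12 and 1.63 CPM in HCT116 (4.97 ± 1.33, adjusted p = 0.0245), CXCL1 (2.30 ± 0.74, adjusted p = 0.0317), TNFAIP3 (1.76 ± 0.56, adjusted p = 0.0272), LIF (0.79 ± 0.29, adjusted p = 0.0385) and CXCL16 (0.54 ± 0.21, adjusted p = 0.0426) also lost theirs in at least 1 omission. Among the 17 that did not pass were CXCL2, at 0.03 ± 0.71 or at -0.27 with libraries scaled by their totals only, NFKBIA (-0.54 ± 0.28) and BIRC3 (0.55 ± 0.48).

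The 6 genes lower in SW620 were receptors, adhesion and presentation molecules, the precursor subunits and PTGS2. CD40 had 0 and 0 counts in SW620, against 1134 and 1040 counts in HCT116, at least 641-fold lower by pooled counts (adjusted p = 7.91e-06). PTGS2 had 0 and 0 counts in SW620, against 84 and 84 counts in HCT116, at least 49.5-fold lower (adjusted p = 1.24e-05). CD83 (-2.84 ± 0.33, adjusted p = 1.06e-05) and ICAM1 (-2.15 ± 0.29, adjusted p = 4.22e-05) were lower in SW620, as were NFKB2 (-1.47 ± 0.23, adjusted p = 0.000161) and NFKB1 (-1.22 ± 0.22, adjusted p = 0.000458).

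The parts of the pathway upstream and downstream of these genes were counted in 4 further lists, to be read against the 5.87% of all genes higher and 3.74% lower in HCT116 and the 11.6% higher and 6.95% lower in SW620. Of 28 receptors and adaptors tested, 5 rose and 0 fell in HCT116 (median log2 fold change 0.043), and 6 rose and 2 fell in SW620 (median -0.0054). In HCT116 TLR3, a receptor for double-stranded RNA, rose by 2.86 ± 0.36 (adjusted p = 0.000636) and BCL10, an adaptor of NF-kB signalling, by 1.09 ± 0.28 (adjusted p = 0.0311). In SW620 NOD2, a sensor of bacterial cell walls, had 12.4 and 9.15 CPM under AFZC against 1.89 and 2.39 CPM under 5-FU, a rise of 2.33 ± 0.30 (adjusted p = 0.000246). IL1R1, the interleukin 1 receptor, had 8 and 5 counts in SW620 under AFZC against 0 and 0 under 5-FU (adjusted p = 0.00764). TRAF6, a ubiquitin ligase downstream of the interleukin 1 receptor, fell by 0.64 on the log2 scale in SW620 (SE 0.18, adjusted p = 0.0257), and LTBR, the lymphotoxin beta receptor, fell by 0.48 (SE 0.14, adjusted p = 0.0341).

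Of 16 kinases and ubiquitin ligases, 3 rose and 0 fell in HCT116 (median log2 fold change 0.25), and 1 rose and 2 fell in SW620 (median -0.067), where 11.6% of all genes were higher and 6.95% lower, so that the SW620 counts are near the background. MAP3K14, the kinase of the noncanonical pathway, rose by 0.77 ± 0.22 (adjusted p = 0.0428) and TAB3, a partner of the TAK1 kinase, by 0.74 ± 0.16 (adjusted p = 0.0138) in HCT116. In SW620 IKBKE, an IkB kinase relative, rose by 0.97 ± 0.27 (adjusted p = 0.0258). RBCK1, a subunit of the linear ubiquitin ligase, fell by 1.38 on the log2 scale (SE 0.24, adjusted p = 0.00196), and IKBKB, the main IkB kinase, fell by 0.71 (SE 0.15, adjusted p = 0.00631). Of 13 other inhibitors and feedback genes, 1 rose and 0 fell in HCT116 (NFKBIB, or IkB-beta, 0.61 ± 0.16, adjusted p = 0.0294), and in SW620 CYLD, a deubiquitinase, rose by 0.89 ± 0.22 (adjusted p = 0.0152) while IER3, an early response gene, fell by 0.93 (SE 0.28, adjusted p = 0.0362). The medians of that list were 0.32 in HCT116 and 0.19 in SW620. TNIP3, in that list but not called in HCT116, passed the filter only through the HCT116 AFZC libraries, which selected it for being high there.

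Of 15 cytokine receptors and receptor antagonists tested, 3 rose and 0 fell in HCT116 (median log2 fold change 0.45), and 5 rose and 0 fell in SW620 (median 0.90), against 5.87% of all genes higher in HCT116 and 11.6% in SW620. CXCR2 passed the filter only through the HCT116 AFZC libraries and so had to differ in HCT116. CX3CR1 also passed only through those libraries, CXCR3 only through the SW620 AFZC libraries and CXCR1 only through the AFZC libraries of both lines. The filter thus selected these genes for being high under AFZC, and the counts of this list cannot be set plainly against those shares. CXCR2, the receptor for the CXCL1 group, had 100 and 88 counts in HCT116 under AFZC against 3 and 3 counts under 5-FU (log2 fold change 4.84 ± 0.67, adjusted p = 0.00136). In SW620 CXCR2 had 6 and 10 counts under AFZC against 0 and 0 under 5-FU (adjusted p = 0.0115). IL1RN, the interleukin 1 receptor antagonist, had 166 and 58 counts in HCT116 under AFZC against 16 and 11 counts under 5-FU, a rise of 2.95 ± 0.62 (adjusted p = 0.0128). In SW620 IL1RN had 8 and 6 counts under AFZC against 0 and 0 under 5-FU (adjusted p = 0.029).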

How the data were processed

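RNA was measured in 8 libraries, 2 per group. Per the labels' protocols, polyadenylated RNA was selected and the libraries are not strand-specific. Raw, unnormalized counts for each gene symbol were deposited by the authors. The tools in the submitters' processing notes are FastQC, Trimmomatic and cutadapt for reads, HISAT2 and STAR, featureCounts, and DESeq2 and edgeR, with the build GRCh38, while the sources used here do not give the aligner behind the counts or the treatment of mates and multiply aligned reads. In every library 1.68 to 1.84 times as many genes had 2 counts as had 1 count, which is what counting both mates leaves, so counting intervals and floors are too narrow and cover counting error only. Gene positions were those of GENCODE release 29 for all 41 genes.

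The filterByExpr function, at a minimum count of 10, kept 21378 genes, and TMM factors scaled the libraries. A single edgeR (4.0.16, R 4.3.3) quasi-likelihood model with 4 group means described the 8 libraries, with robust dispersion (4 residual degrees of freedom, common coefficient of variation 19.9%). Tests were two-sided, adjusted with Benjamini-Hochberg over all genes tested, with a threshold of 0.05. The SE of a log2 fold change is the change divided by the square root of the F statistic. The data.table package (version 1.17.8) read the tables, and DESeq2 1.42.0 was an alternative. Other alternatives were other scalings, no filter, each line alone, a replicate block and leaving out each library. The steps were tested on simulated data. For LTB, TNF, CSF2, CSF3, CXCL5, CXCL11, CCL2, CCL20 and CX3CL1, where a group had few counts, a ratio of pooled counts scaled by library size is given in place of the fitted fold change, with a 95% exact binomial interval, and genes with 0 counts in a group have a bound computed from a floor of 3 counts in the group. Promoter identities were computed with Biopython 1.88 and figures drawn with matplotlib 3.10.9 in Python 3.11.15.

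The 41 genes, their classes and the 4 further pathway lists were chosen with earlier results of these data known. All 41 may be named. From each further list the 2 called genes with the largest rise and the 2 with the largest fall per treatment comparison are named. Promoters were shown by rule for the called genes with the largest SW620 change in 4 classes, CSF3, the largest of the interleukins, having no entry, and CXCL1, CXCL2, CXCL3 and CXCL8 were added. Starts are those of RefSeq. The outermost GENCODE starts differ for some genes, by kilobases for CCL20, IL23A, CXCL11 and TNFRSF9, so matches there depend on the start taken. The labels do not state whether libraries of 1 group are separate cultures, and a p-value here measures the spread between libraries, possibly a technical one. Within each group the libraries differed beyond sampling noise (chi-square over its degrees of freedom 23.4 to 59.3), and each counted as 1 sample.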

Additional observations from a re-analysis of the deposited data

Results flagged for a closer look

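The effect of AFZC differed between the lines in a test of the difference itself (edgeR's quasi-likelihood test, Benjamini-Hochberg adjusted p under 0.05) for 9 of the 38 genes tested, against 9.78% of all genes. The log2 fold change in SW620 minus that in HCT116 was 2.10 for TRAF1, 4.18 for LTB, 9.39 for CD40, 1.98 for CD83, 2.50 for ICAM1, 1.60 for IL23A, 3.54 for IL32, 3.47 for CXCL2 and -1.67 for LIF. The value of CD40 is fitted against 0 counts in SW620 under 5-FU. LTB passed the filter only through the SW620 AFZC libraries, which selected it for being high there. TNF, CSF3, CXCL5, CXCL10 and PTGS2 are among the 38 but had no counts in 1 line, so their difference could not be estimated. All 9 calls were among the 33 genes with counts in both lines. CXCL2, IL23A and LIF lost this call in 5 or 6 of the 8 omissions of a library, LTB in 3, and CD83 and IL32 in 1, the omission of replicate 1 of 5-FU in HCT116.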

How the results depend on the processing

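Across all alternatives, 767 values of called genes were tried again: 661 kept direction and call, 106 lost the call and 0 reversed. Counts of higher genes in HCT116 moved most: 3 as reported, 6 with libraries scaled by their totals only, 10 without the low-count filter, 12 with DESeq2, 6 with each line fitted alone and 0 to 16 when 1 library was left out. In SW620 leaving out 1 library gave 15 to 26 higher and 0 to 1 lower. For the difference between the lines it gave 4 to 13 higher and 0 to 5 lower, and without the filter 2 were lower. For SW620 against HCT116 under 5-FU it gave 8 to 14 higher and 6 to 7 lower. Over all genes, 1254 of 21378 were higher in HCT116 as reported and 1318 with libraries scaled by their totals only. The number was 1758 of 36816 without the filter, 1543 of 21378 with DESeq2 and 1529 of 19103 with each line fitted alone. For the difference 1280 of 36816 were lower without the filter, against 884 of 21378 as reported. Calls over all genes also changed with the library left out, so the ranges above do not separate pathway genes from all genes. The causes were not tested.

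No label says that replicate numbers pair libraries across groups, and the correlations of replicate differences ran from -0.229 to 0.137. With a replicate block 3 genes were higher and 0 lower in HCT116, 23 and 1 in SW620, 7 and 1 for the difference and 14 and 6 between the lines. Over all 21378 genes the block gave 1137 and 692, 2271 and 1384, 1064 and 767, and 5538 and 5838. The calls lost under the block were that of CXCL2 for the difference (adjusted p = 0.0608) and that of CXCL8 between the lines (adjusted p = 0.0593, both by edgeR).

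Scaling by totals only moved the median log2 fold change of all genes in SW620 by 0.375 and gave 5141 genes higher and 445 lower, against 2482 and 1486. The medians of the difference and the line comparison moved by 0.350 and -0.301. RELA, IL11 and CXCL16 changed sign in SW620 without being called. With DESeq2, TNF, CXCL5 and CCL20 lost their SW620 calls, and CXCL10 got no adjusted p. With 2 libraries per group and no untreated cells, a missed threshold does not show that a gene was unchanged, and genes with few counts are known only as ratios of pooled counts.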
